A study of Mus musculus with 8 samples.

Results

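The glutathione transferase family was followed through 10 genes of mouse epididymal white adipose tissue (WAT), namely Gstm1, Gstm2, Gstm5, Gsta3, Gsta4, Gstp1, Gstt1, Gsto1, Mgst1 and Mgst3. They were taken by gene symbol, with every probe of each, and came to 18 probes out of 25696 on the array and 10 genes out of 16593 that the probes name. The family was picked with the comparison of the groups already known, since Gstm1 had read lower on every array of one group. Differences of these 10 genes between the groups are therefore given as a description, with no test.

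RNA of epididymal WAT was hybridised to an Illumina mouse BeadChip, 1 array per sample. The labels assign 4 samples to a transgene that raises angiotensinogen, the precursor of the angiotensin peptides, in white adipose tissue (Agt Tg), and the other 4 to wild type (Wt). All 8 were from male C57BL6/J animals aged 4 months, and the paper's methods state a low fat diet for both groups. Per the paper, the transgene is driven by the aP2 promoter, which macrophages can use as well as adipocytes. Whether every sample was its own mouse is not stated, so a p-value here reflects sample-to-sample spread, which may be technical.

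Agt itself, read by its brightest kept probe, was not higher on the arrays labelled Agt Tg. In log2 intensity it read 6.74, 8.80, 6.39 and 8.39 on replicates 1 to 4 there and 7.50, 8.87, 8.11 and 8.09 on Wt replicates 1 to 4 (difference of -0.56 ± 0.48, SE, limma adjusted p = 0.718). Every direction below thus rests on the labels alone. Of the white adipocyte markers 12 of 14 were detected. Of the 8 epididymis markers 6 were on the array, and 3 of these, Lcn5, Gpx5 and Spint4, were below background on all arrays. Only 1 was detected on at least 4 arrays, at 5.10 to 6.52 on Agt Tg and 5.27 to 5.78 on Wt. Detected probes ran from 11253 to 12284 per array, and precision is limited by having 4 arrays in each group.

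Glutathione transferases couple the tripeptide glutathione to reactive, mostly fat-soluble molecules such as lipid aldehydes, epoxides and drugs, so that the products can be exported and excreted. The soluble enzymes form dimers and fall into classes named by Greek letters (mu, alpha, pi, theta, omega), while the microsomal enzymes sit in membranes and belong to a separate family. Adipocytes store much of the body's unsaturated lipid and make aldehydes when that lipid is oxidised, which these enzymes can remove. Many family members are induced through the transcription factor Nrf2, which binds the antioxidant response element.

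Values are log2 intensities after background correction and quantile normalization, written for replicates 1 to 4 of a group. A probe counted as detected on an array at a detection p under 0.05, and was kept if detected on at least 4 of the 8 arrays. Of the 18 probes 16 were kept, at least 1 for each of the 10 genes. Several family members are close paralogs, and the probe sequences were not used here, so a probe may also read a neighbour of its gene. Levels are compared only within a probe. In bulk tissue, fewer cells of a type and less RNA per cell cannot be told apart.

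The mu class held the clearest separation of the groups. Gstm1, a cytosolic enzyme of broad substrate range, read 10.65, 10.88, 10.67 and 11.03 on the arrays labelled Agt Tg and 11.32, 11.40, 11.29 and 11.39 on Wt. Every Agt Tg array lay below every Wt array, with a gap of 0.26 between the nearest arrays, and the Wt arrays lay close together (SD of 0.056, n = 4, against 0.18, n = 4). The means were 10.81 and 11.35, a log2 difference of -0.54 ± 0.13 (SE), or 1.46-fold lower. On the authors' own log2 values, which carry no background correction, the difference was -0.52. The other Gstm1 probe was detected on 1 array of each group and was not compared, so the difference rests on 1 probe.

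Gstm2, the mu-class neighbour of Gstm1 on chromosome 3, was read by 3 probes that did not give 1 direction. The brightest read 13.09, 13.47, 13.10 and 13.40 on Agt Tg and 13.30, 13.08, 13.27 and 13.18 on Wt (difference of 0.06 ± 0.13, SE). The second read 12.90, 12.93, 12.75 and 13.27 against 13.08, 13.04, 12.97 and 12.94 (-0.04 ± 0.13, SE). On both of these probes the groups overlapped widely. The dimmest read 11.24, 11.30, 11.17 and 11.39 on Agt Tg and 11.70, 11.34, 11.69 and 11.59 on Wt (-0.30 ± 0.13, SE). There only Agt Tg replicate 4 reached above the lowest Wt array, by 0.048. With median scaling of the arrays in place of quantile normalization the brightest probe turned to -0.05, beside a median of -0.13 over all probes, so that relative to that median it lay at 0.07.

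Gstm5, a mu-class gene on the other strand of the same chromosome, read 7.55, 7.60, 7.18 and 8.12 on Agt Tg and 7.96, 7.79, 8.27 and 7.93 on Wt. Agt Tg replicate 3 was the lowest array and replicate 4 lay among the Wt arrays, so the groups overlapped (-0.38 ± 0.21, SE). Without Agt Tg replicate 3 the difference was -0.23, and it was -0.25 on the authors' values.

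The bases just before the start of the 3 mu-class genes are shown because the probes of these genes did not move alike between the groups. They are from RefSeq on GRCm38.p6, each 5′ to 3′ on the strand of its gene and ending at the base before the start site, at chr3:108017974-108018073 (minus strand, the first of 2 listed starts of Gstm1), chr3:107986421-107986520 (minus strand) and chr3:107895754-107895853 (plus strand). Capitals mark the letters TGACNNNGC, a core of the antioxidant response element.
Gstm1: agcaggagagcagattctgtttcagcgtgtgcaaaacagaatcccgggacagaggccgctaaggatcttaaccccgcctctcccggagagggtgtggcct
Gstm2: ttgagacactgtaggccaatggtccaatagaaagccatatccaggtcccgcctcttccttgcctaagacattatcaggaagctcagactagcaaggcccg
Gstm5: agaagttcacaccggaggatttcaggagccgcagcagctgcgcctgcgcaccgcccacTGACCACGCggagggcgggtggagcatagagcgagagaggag
Aligned over 250 bases upstream, Gstm1 and Gstm2 were identical at 45.5% of columns, Gstm1 and Gstm5 at 45.3% and Gstm2 and Gstm5 at 47.4%. Gaps were allowed and no unrelated promoters were aligned beside them, so these values do not show whether the genes share upstream sequence.

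The alpha class split, with Gsta3 lower in its mean and Gsta4 higher. Gsta3, known in mice for conjugating activated aflatoxin, read 10.15, 11.47, 10.04 and 11.10 on Agt Tg and 11.30, 11.77, 10.61 and 11.39 on Wt with its brighter probe. Agt Tg replicates 1 and 3 were the lowest arrays, more than 1 log2 unit below replicate 2, and Wt replicate 3 lay among the Agt Tg arrays (-0.58 ± 0.32, SE). The difference ran from -0.84 without Agt Tg replicate 2 to -0.36 without Agt Tg replicate 3. Its dimmer probe was detected on 1 Agt Tg and 3 Wt arrays and differed by -0.06 ± 0.38 (SE).

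Gsta4, the alpha-class enzyme that conjugates hydroxynonenal and other aldehydes of oxidised lipid, read 6.98, 8.33, 6.98 and 8.23 on Agt Tg and 7.01, 7.77, 7.51 and 7.04 on Wt. The Agt Tg arrays fell at both ends, replicates 1 and 3 below the lowest Wt array and replicates 2 and 4 above the highest. The mean difference of 0.29 ± 0.33 (SE) therefore describes no array of the group, and it lay at 0.061 without Agt Tg replicate 2 and at 0.51 without replicate 1 or 3.

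In the pi class, Gstp1, an abundant cytosolic enzyme also known for binding the stress kinase JNK, was read by 2 detected probes that pointed opposite ways. The brighter read 12.08, 12.48, 12.05 and 12.71 on Agt Tg and 12.13, 12.25, 12.18 and 12.23 on Wt (0.13 ± 0.16, SE), a difference that fell to 0.0064 without Agt Tg replicate 4. The other read 10.03, 10.60, 10.09 and 10.45 against 10.41, 10.84, 10.45 and 10.69 (-0.31 ± 0.17, SE). On both probes Agt Tg replicates 1 and 3 were below replicates 2 and 4, and the groups overlapped. A further probe of Gstp1 was not above background on any array.

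The theta and omega classes had 1 probe each. Gstt1, which breaks down small halogenated molecules, read 8.38, 9.24, 7.79 and 8.68 on Agt Tg and 8.26, 8.85, 8.57 and 8.50 on Wt, with the lowest and the highest array both in Agt Tg (-0.02 ± 0.27, SE). It turned from -0.26 without Agt Tg replicate 2 to 0.22 without Agt Tg replicate 3. Gsto1, a thiol transferase that also reduces dehydroascorbate, read 11.01, 10.84, 10.81 and 10.96 on Agt Tg and 11.10, 11.17, 11.13 and 11.44 on Wt. Here every Agt Tg array was again below every Wt array, with a gap of 0.083. The means were 10.91 ± 0.098 and 11.21 ± 0.15 (SD, n = 4), a difference of -0.30 ± 0.13 (SE), or 1.23-fold lower, and -0.23 without Wt replicate 4. With median scaling the Gsto1 groups overlapped, by 0.051, whereas those of Gstm1 stayed apart, by 0.042.

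The microsomal enzymes were lower in their means on all 4 probes, with overlapping groups on each. Mgst1, of the endoplasmic reticulum and the outer mitochondrial membrane, read 12.64, 13.35, 12.39 and 12.78 on Agt Tg and 13.05, 13.32, 13.15 and 13.05 on Wt with its brighter probe (-0.35 ± 0.18, SE). The difference ran from -0.54 without Agt Tg replicate 2 to -0.22 without Agt Tg replicate 3. Agt Tg replicate 2 was the highest of all 8 arrays and the other Agt Tg arrays the lowest. Its dimmer probe read 9.66, 9.27, 9.41 and 9.90 against 10.12, 9.46, 11.13 and 9.80 (-0.57 ± 0.30, SE), and without Wt replicate 3, the array at 11.13, it differed by -0.23.

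Mgst3, a membrane enzyme that reduces lipid hydroperoxides, read 11.80, 12.77, 11.78 and 12.18 on Agt Tg and 12.00, 12.40, 12.91 and 11.85 on Wt (-0.16 ± 0.25, SE). Wt replicate 3 was the highest array, and without it the difference turned to 0.050. The dimmer probe of Mgst3 read 8.83, 9.72, 8.76 and 9.37 against 9.49, 10.40, 10.41 and 9.39 and gave the widest difference among the kept probes of the family, -0.76 ± 0.28 (SE), or 1.69-fold lower. Agt Tg replicate 2 lay within the Wt range there.

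**Figure D1:**
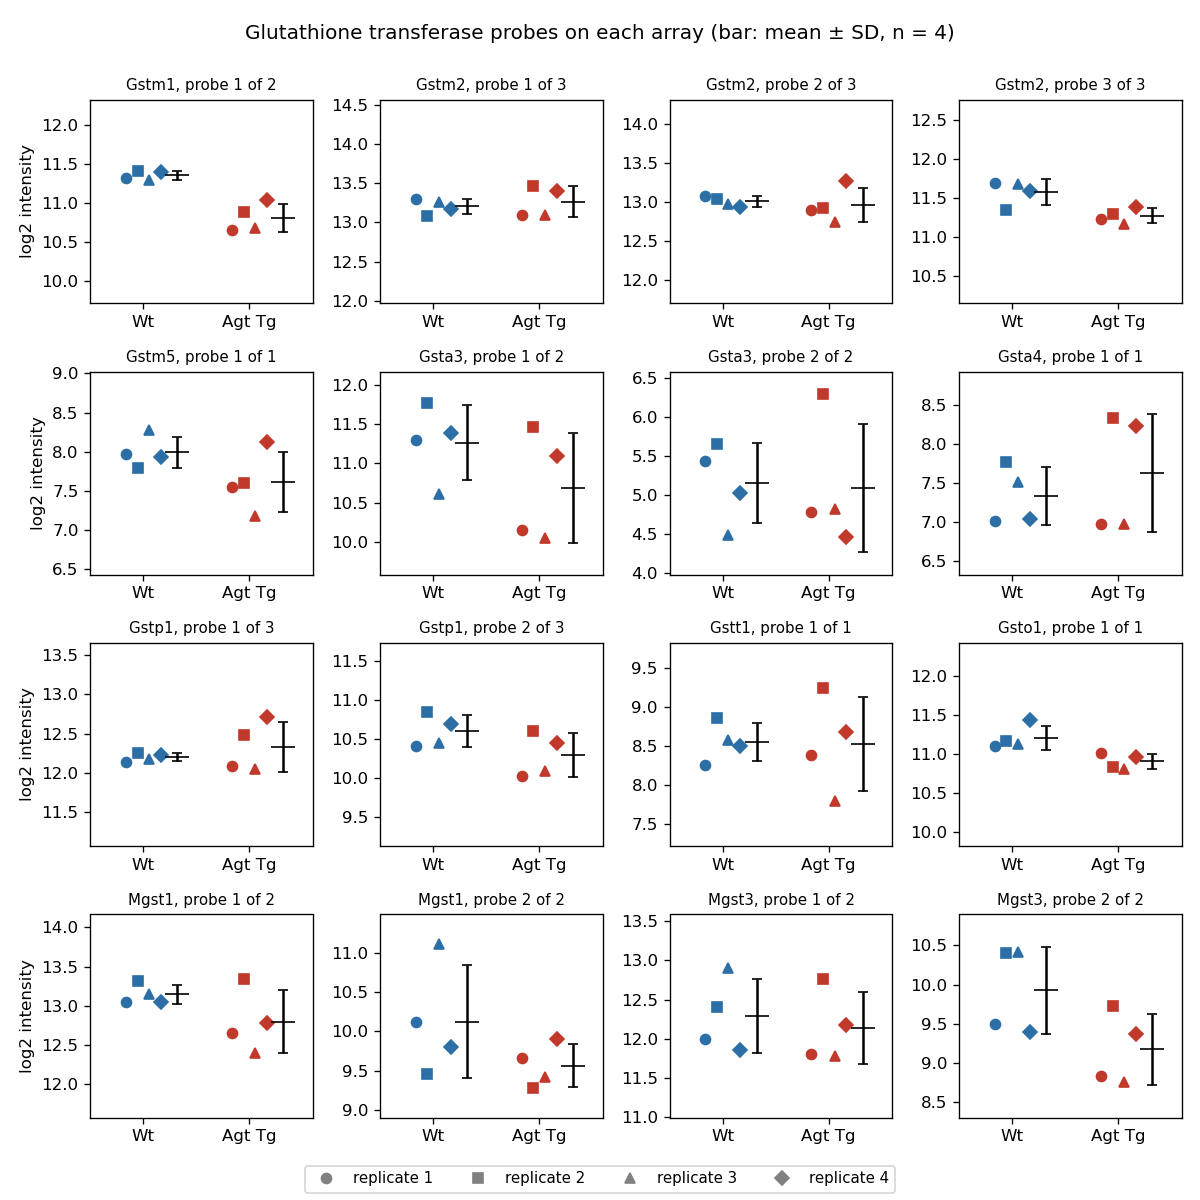
Log2 intensity of the 16 kept probes of the family on each array, Wt in blue and Agt Tg in red, with a marker shape for each replicate number and a black bar for the mean ± SD (n = 4). The panels span the same number of log2 units at different positions. The groups are apart for Gstm1 (probe 1 of 2) and Gsto1. Agt Tg replicates 1 and 3 (circle and triangle) lie below replicates 2 and 4 on 13 of the 16 probes. The exceptions are Gsto1 and the dimmer probes of Gsta3 and Mgst1. The share of all kept probes in that order was not counted, so the order is not shown to be particular to the family. Agt and the mean of the white adipocyte markers lie in it too, and the mean of the macrophage markers in the reverse.

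Counted over the family, 13 of the 16 kept probes had a lower and 3 a higher mean on the arrays labelled Agt Tg, with a median difference of -0.30. Over all 11624 kept probes 48.5% had a lower mean, with a median of 0.010. Taking the brightest probe of each gene, 7 of 10 genes were lower and 3 (Gsta4, Gstp1 and Gstm2, the last of which turned with median scaling) higher, with a median of -0.23. Over all 8285 genes 48% were lower, with a median of 0.014. The groups did not overlap for 2 probes of the family, Gstm1 and Gsto1, both lower, beside 3.34% of all kept probes that were lower without overlap and 3.02% that were higher. By gene it was 2 of 10, beside 3.31% of all genes lower and 3.05% higher without overlap. Nothing is read from these counts, since the family was chosen on this contrast. Across the array limma gave 0% of probes at adjusted p under 0.05 (lowest 0.224), and 1145 probes, 9.85%, at unadjusted p under 0.05, of which 5.68% of all probes were lower and 4.17% higher.

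**Figure D2:**
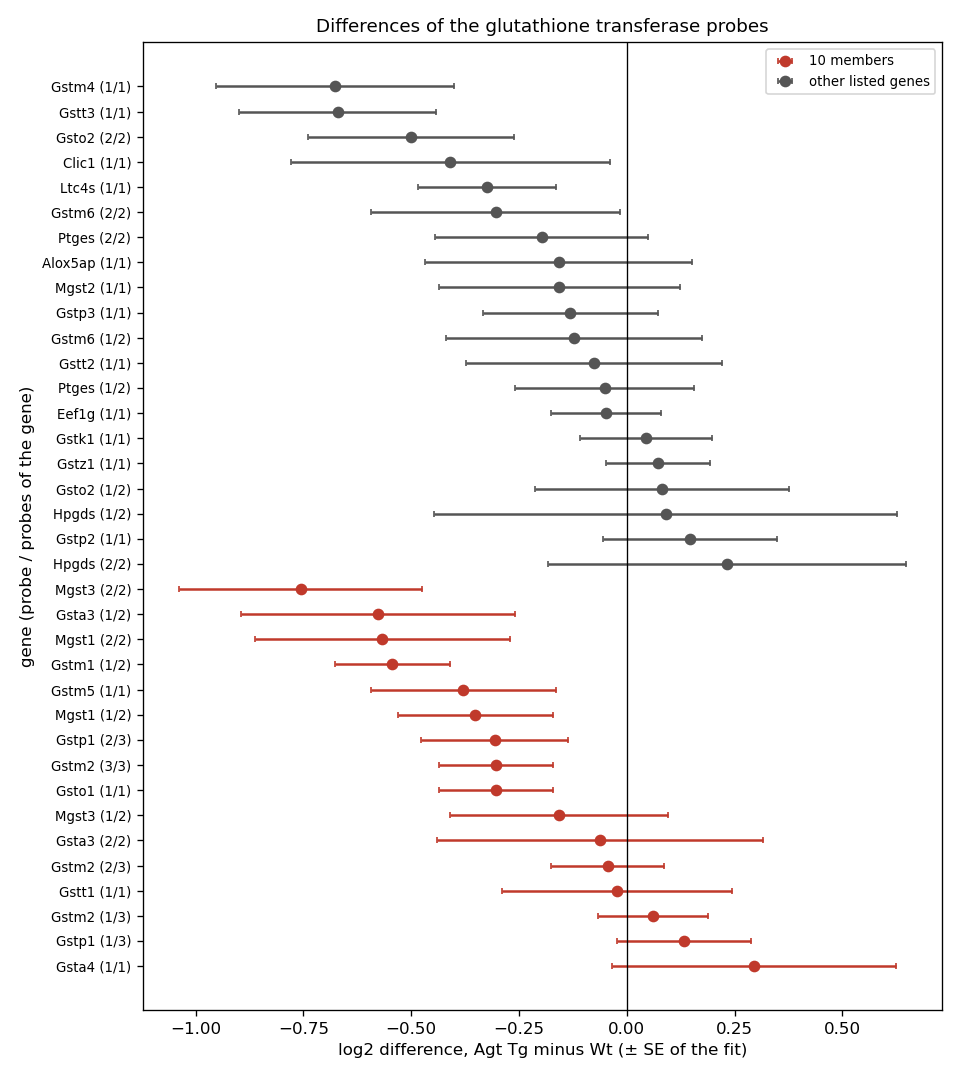
Log2 difference, Agt Tg minus Wt, of each kept probe (± SE of the limma fit), with the 10 genes of the family in red and the other listed family and family-related genes in grey. Within the family the differences run from -0.76 (Mgst3, probe 2 of 2) to 0.29 (Gsta4), and with quantile normalization probes of 1 gene differ in direction for Gstm2 and Gstp1.

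Where a gene had several kept probes, their agreement was measured by the correlation of the deviations from each group's mean over the 8 arrays. It was 0.93 for Mgst3, 0.78 for Gstp1 and 0.69 for Gsta3. The Gstm2 probes correlated at 0.55, 0.72 and 0.42 with each other, no more closely than some correlated with other mu-class genes. The second Gstm2 probe correlated with the Gstm1 probe at 0.80 and with that of Gstm5 at 0.79. The Mgst1 probes did not follow each other (-0.21). These are descriptions over 8 arrays that share 1 normalization.

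Other genes of the family and genes related to it were tested, as they are not among the 10. The list was still drawn up with earlier results of these data known, so its p-values do not come from an independent set. The list held 25 genes, of which 23 were on the array and 16 were kept, 11 lower and 5 higher with a median of -0.10. At unadjusted p under 0.05, 2 were lower and 0 higher, beside 5.35% and 3.93% of all genes, and none passed at adjusted p. Gstt3, a theta-class neighbour of Gstt1, read 6.49, 7.24, 6.93 and 6.76 on Agt Tg and 7.38, 7.78, 7.83 and 7.11 on Wt (-0.67 ± 0.23, SE, limma unadjusted p = 0.0121, adjusted p = 0.40), and differed by -0.38 on the authors' values. Gstm4, of the mu class, read 4.99, 6.32, 5.46 and 5.85 against 6.09, 6.67, 6.28 and 6.30 (-0.68 ± 0.28, SE, limma unadjusted p = 0.0295, adjusted p = 0.473). On the authors' values Gstm4, which was not detected on 1 Agt Tg array, differed by -0.24. Only Agt Tg replicate 2 was above a Wt array for Gstm4, and the groups of both genes overlapped.

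Among paralogs of the same class, Gstm6 differed by -0.12 ± 0.30 (SE) and -0.30 ± 0.29 (SE) on its 2 probes, Gstp2 by 0.15 ± 0.20 (SE) and Gstp3 by -0.13 ± 0.20 (SE). Gstt2 lay at -0.08 ± 0.30 (SE), next to Gstt1. Gsto2, the other omega-class gene, gave 0.08 ± 0.30 (SE) on its brighter probe and -0.50 ± 0.24 (SE) on its dimmer one. On the dimmer probe the groups were apart by only 0.0071, and the authors' values gave -0.16. Its raw intensities were only 133 to 180, and 3.34% of all kept probes were lower without overlap. Beside the Gstm1 difference, means in its class were lower at Gstm4, Gstm5 and Gstm6, with no common direction at Gstm2. On neither Gstm6 probe was the difference much larger than its SE, and 48% of all genes had a lower mean. Within the groups the Gstm1 probe correlated with that of Gstm4 at 0.71 and with those of Gstm6 at 0.80 and 0.72. Whether these probes read each other's genes was not tested. Of the membrane proteins Mgst2 differed by -0.16 ± 0.28 (SE), Ltc4s, which makes the cysteinyl leukotrienes, by -0.32 ± 0.16 (SE) and Alox5ap by -0.16 ± 0.31 (SE).
Gstk1, the mitochondrial and peroxisomal kappa-class enzyme, differed by 0.04 ± 0.15 (SE) and Gstz1, the zeta-class enzyme of tyrosine breakdown, by 0.07 ± 0.12 (SE). Hpgds differed by 0.09 ± 0.54 (SE) and Ptges by -0.05 ± 0.21 (SE), both prostaglandin synthases, and Eef1g and Clic1, which carry a transferase-like fold, by -0.05 ± 0.13 (SE) and -0.41 ± 0.37 (SE), with Clic1 at -0.21 on the authors' values. Gstm3, Gsta1, Gsta2, Gstt4, Gstcd, Ptgds and Gdap1 were not kept, and Gstm7 and Clic4 were not analysed here.

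Genes that make, recycle and use glutathione, with targets of Nrf2, were split between the directions, and few passed a threshold. Of 49 listed genes 42 were on the array and 35 were kept, 19 lower and 16 higher. In limma 1 passed as lower and 0 as higher at unadjusted p under 0.05, beside 5.35% and 3.93% of all genes, and none passed at adjusted p. Counting all 52 kept probes of the list, 2 were lower (Cbr1 and the dimmest of 3 Gpx8 probes, -0.53 ± 0.20, SE) and 1 higher (the second Ggct probe, 0.50 ± 0.21, SE), while the brightest probes of Gpx8 and Ggct lay at -0.17 and -0.21. Gpx8 and Ggct were named after their values were seen. Cbr1, a carbonyl reductase, was that gene, at 6.78, 6.98, 5.39 and 6.63 on Agt Tg and 7.27, 7.47, 6.72 and 7.15 on Wt (-0.70 ± 0.32, SE, limma unadjusted p = 0.0468, adjusted p = 0.505), and differed by -0.33 on the authors' values. Agt Tg replicate 3 stood lowest, and no gene passed without Wt replicate 1, 2 or 4. Gpx4, the peroxidase that reduces lipid hydroperoxides in membranes, differed by -0.31 ± 0.15 (SE) on its brighter probe and by 0.40 ± 0.19 (SE) on its dimmer one, where every Agt Tg array was above every Wt array, so the direction of Gpx4 depends on the probe. Of all kept probes 3.02% were higher without overlap. The dimmer Gpx4 probe had raw intensities of only 163 to 198. On the authors' values the brighter probe differed by -0.30 and the dimmer by 0.16. Cat, catalase, differed by -0.33 ± 0.22 (SE). Aldh3a2, a fatty aldehyde dehydrogenase, differed by 0.30 ± 0.17 (SE), with groups that met only at their nearest arrays. Nqo1, a quinone reductase and an Nrf2 target, lay at 0.40 ± 0.24 (SE), and at 0.14 on the authors' values, and Mafg, a small Maf partner of Nrf2, at -0.32 ± 0.22 (SE). Esd, which completes formaldehyde oxidation through glutathione, differed by -0.54 ± 0.31 (SE) on its brightest probe (-0.32 on the authors' values) and by 0.25 and -0.23 on its other kept probes. Abcc1, an exporter of glutathione conjugates, differed by 0.27 ± 0.22 (SE), and by 0.088 on the authors' values. On the brightest probe of each kept gene the groups overlapped throughout the list, and among its other kept probes they were apart for that of Gpx4.

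A pattern that did not enter the choice of the family was how its members varied among arrays of 1 group. For this, each group's mean was taken out of the brightest kept probe of each gene, and the 45 pairs were correlated over the 8 arrays, with exact two-sided permutation of the arrays within groups. Of these pairs 41 had r above 0, with a median of 0.60. Over all pairs of the 8285 genes 50.02% had r above 0, with a median of 0.00025. The highest was Gstm1 with Gstp1 (r = 0.97, exact permutation p = 0.0122, adjusted p = 0.137, Spearman coefficient = 0.95, exact p = 0.0486, adjusted p = 0.30), with r = 0.92 without the 2 arrays farthest from the median. Gstt1 with Mgst1 followed (r = 0.96, exact permutation p = 0.00347, adjusted p = 0.0521, Spearman coefficient = 0.95, exact p = 0.00347, adjusted p = 0.156, r = 0.93 without 2 arrays). Gsta4 correlated with Gstt1 at 0.86 and with Mgst1 at 0.82, both with the same exact permutation p = 0.00347 and adjusted p = 0.0521, and without 2 arrays r was 0.64 and 0.74. At unadjusted p under 0.05, 7 pairs passed, and none passed after adjustment over the 45. The share of all gene pairs that pass this threshold was not computed, so nothing is read from the 7. The smallest p that the orders within groups allow is 0.00174. Much of the spread lay between Agt Tg replicates 1 and 3 on the one side and 2 and 4 on the other. Agt and the mean of the white adipocyte markers were split in the same way.

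Gsto1 had low r values with the rest of the family. Its r with the other 9 genes ran from -0.45 with Mgst3 to 0.19 with Gstm1, none at unadjusted p under 0.05, and whether it differs from the other genes in this was not tested. The 2 genes whose groups were apart, Gstm1 and Gsto1, thus had an r of 0.19 within the groups (exact permutation p = 0.583, adjusted p = 0.691, Spearman coefficient = 0.19, exact p = 0.649, adjusted p = 0.713), and of 0.40 without the 2 arrays farthest from the median.

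**Figure D3:**
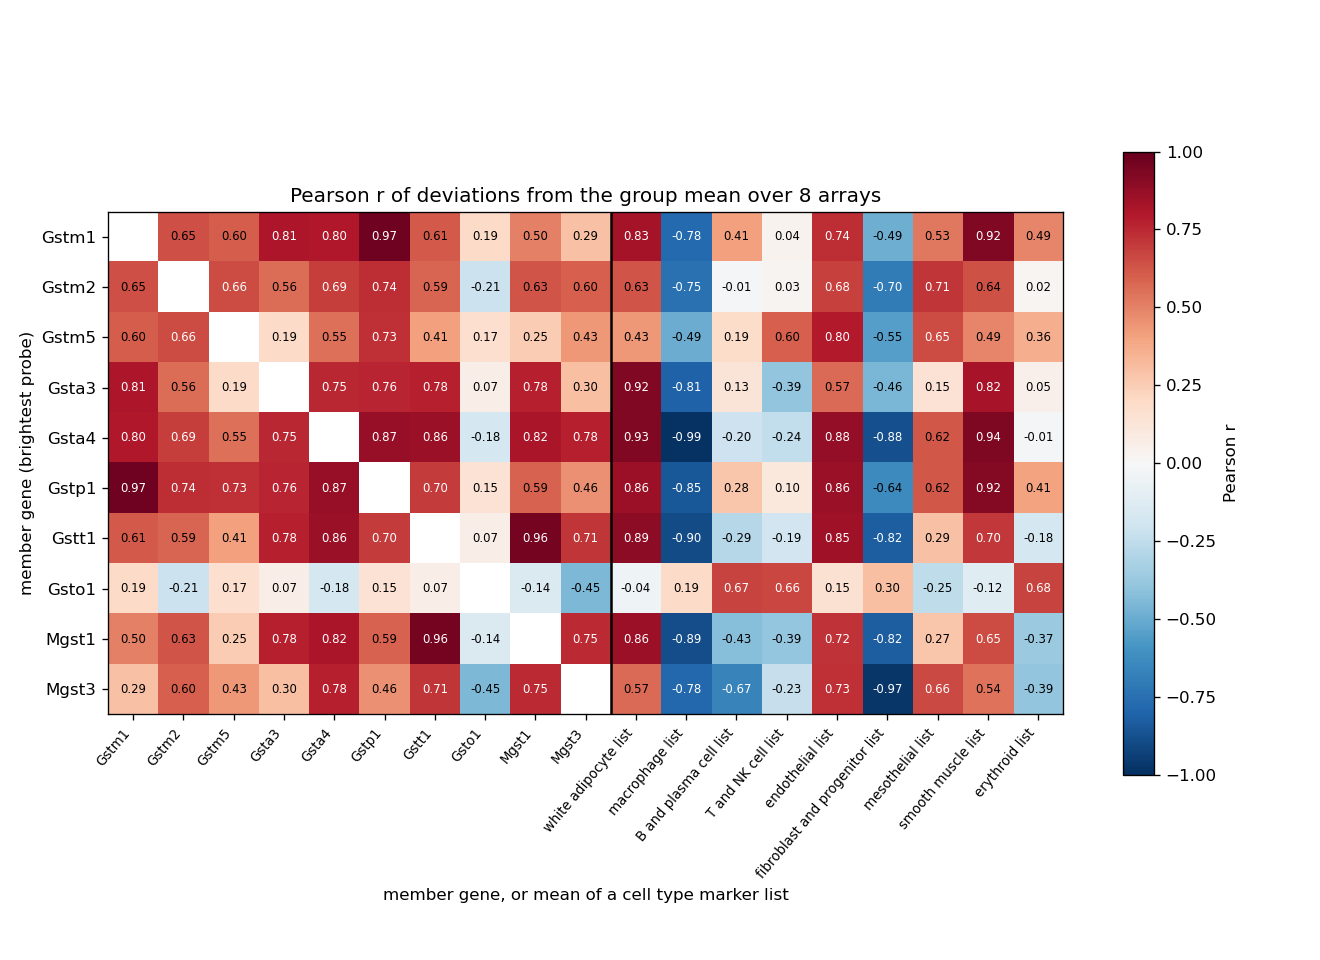
Pearson r of deviations from the group mean over the 8 arrays, for pairs of the 10 genes (left of the line) and for each gene with the mean of a cell type marker list (right of the line), on a scale from -1 in blue to 1 in red. Most gene pairs are red, with Gsto1 as the pale row, and the macrophage column is blue for all genes but Gsto1.

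The same arrays differed in markers of cell types. Macrophage markers, of which 12 of 15 were kept and 6 of these had a lower mean on Agt Tg, averaged 10.29, 8.81, 10.32 and 9.18 on the arrays labelled Agt Tg and 10.05, 9.46, 9.71 and 10.06 on Wt. Their summed intensity ran from 21879 to 56376 on Agt Tg and from 32830 to 49937 on Wt, and no kept macrophage marker was below background on all arrays. So Agt Tg replicates 1 and 3 were the highest of all arrays in these markers and replicates 2 and 4 the lowest, the reverse of their order in Gsta4. White adipocyte markers averaged 11.82, 12.29, 11.69 and 12.22 on Agt Tg and 11.92, 12.19, 11.87 and 11.90 on Wt, with 5 of 12 lower. Their summed intensity ran from 135140 to 159900 on Agt Tg and from 137670 to 158490 on Wt.

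Of 90 relations between the 10 genes and 9 marker lists none passed after adjustment (smallest adjusted p = 0.156 by exact permutation). Gsta4 lay closest to the macrophage markers, with r = -0.99 (exact permutation p = 0.00694, adjusted p = 0.156, Spearman coefficient = -0.95, exact p = 0.0486, adjusted p = 0.312), and r = -0.996 without the 2 arrays farthest from the median. Gstt1 gave -0.90, Mgst1 -0.89, Gstp1 -0.85, Gsta3 -0.81 and Gstm1 -0.78, while Gsto1 gave 0.19. On the adipocyte list Gsta4 correlated at 0.93, Gsta3 at 0.92, Gstt1 at 0.89 and Gstm1 at 0.83. The list closest to Gstm1 was that of smooth muscle (r = 0.92, exact permutation p = 0.0295, adjusted p = 0.24, Spearman coefficient = 0.93, exact p = 0.0799, adjusted p = 0.323), with r = 0.85 without 2 arrays. Smooth muscle markers averaged 8.39 to 9.13 on Agt Tg and 8.87 to 9.18 on Wt, with 3 of 4 kept genes lower, a summed intensity of 8129 to 19221 against 12783 to 16538, and Cnn1 below background on all arrays, and their part in the Gstm1 difference was not tested. Mgst3 ran against the fibroblast and progenitor markers (r = -0.97, exact permutation p = 0.00174, the smallest the orders allow, adjusted p = 0.156, Spearman coefficient = -0.90, exact p = 0.00347, adjusted p = 0.268, r = -0.93 without 2 arrays).

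With the macrophage mean as a covariate, an alternative chosen after the data were seen, the Gsta4 difference shrank from 0.29 to 0.13, whereas Gstm1 went from -0.54 to -0.57 and Gsto1 from -0.303 to -0.296. The Wt arrays spanned 9.46 to 10.06 in the macrophage mean and every Agt Tg array lay outside that span, so the groups were not compared at a shared level of these markers, and their part in the Gstm1 difference was not tested. Markers of lymphocytes had lower means on Agt Tg, 5 of 5 kept B and plasma cell markers (list mean 4.81 to 6.79 against 5.96 to 8.31, summed intensity 142.6 to 662 against 430 to 1893) and 5 of 5 kept T and NK cell markers (5.71 to 6.55 against 6.11 to 7.08, summed intensity 284 to 516 against 357 to 694), with Cd8a and Gzma below background on all arrays. Within the groups Gsto1 correlated with these 2 lists at 0.67 and 0.66 and Gstm1 at 0.41 and 0.04. Their part in the differences of Gstm1 and Gsto1 was not tested.

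**Figure D4:**
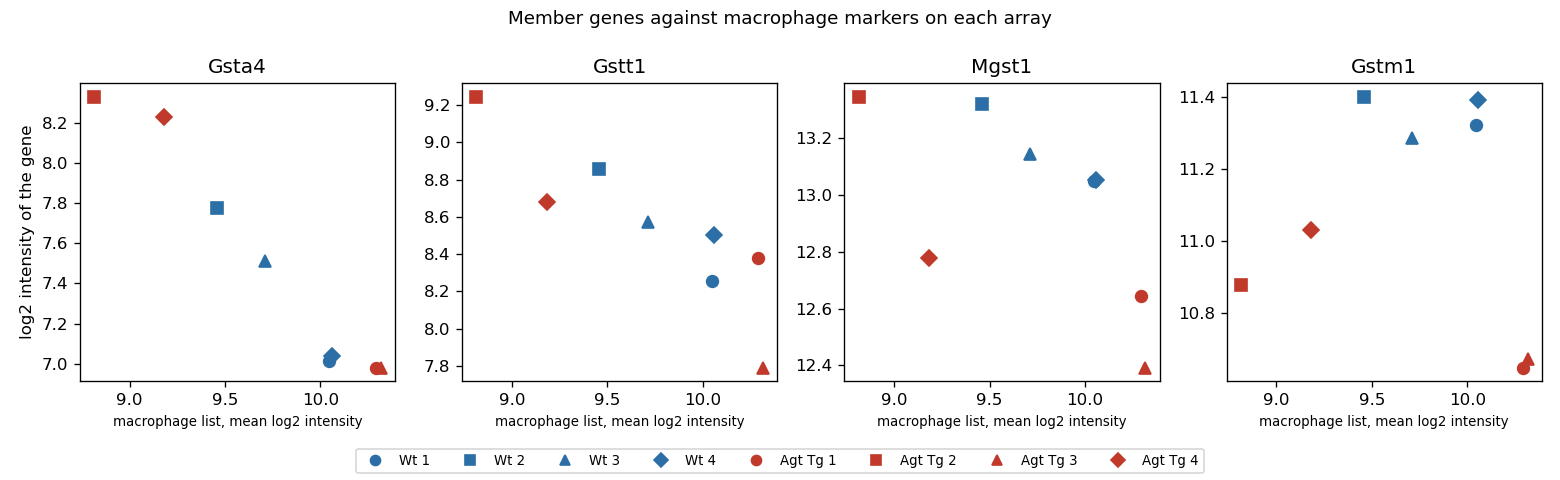
Log2 intensity of Gsta4, Gstt1, Mgst1 and Gstm1 on each array (vertical) against the mean log2 intensity of the 12 kept macrophage markers (horizontal), Wt in blue and Agt Tg in red, with a marker shape for each replicate number. For Gsta4 the arrays of both groups lie along a falling line, and for Gstm1 the Agt Tg arrays read below the Wt arrays but lie on either side of them in the marker mean, with no level shared by the groups.

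Among 8284 other genes, those whose deviations over the 8 arrays were most like those of Gstm1 were Bcar1 (r = 0.98), an adaptor of integrin signalling, Il17rc (0.98), an interleukin receptor subunit, Gstp1 (0.97), Gimap8 (0.97), a GTPase of lymphocytes, and Stmn2 (0.96), a regulator of microtubules. Gstp1 was the 1 family member in this set. The most opposed were Incenp (-0.99), of the chromosomal passenger complex, Arhgef6 (-0.97) and Gch1 (-0.97), which starts tetrahydrobiopterin synthesis. For Gsta4 they were Mgll (0.99), the monoacylglycerol lipase that completes the breakdown of stored fat, Sccpdh (0.99) and Rngtt (0.99), the RNA capping enzyme. With 8 arrays and so many genes, such r values are a description only.

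Beside these correlations, of which none passed after adjustment, the promoters of the members were searched for the letters TGACNNNGC on both strands over the 250 bases before the start. Of 9 members in the RefSeq promoter table (GRCm38.p6) 3 held them, Gstm5, Gsta3 and Mgst1, against 11.5% of all 27025 genes. The window of Gstm5 is in the stretch printed above, 33 bases before the start. The other 2 are shown with 20 bases on either side, at chr1:21240444-21240492 (plus strand, 112 bases before the start) and chr6:138140451-138140499 (plus strand, 47 bases before the start), with the match in capitals. In Mgst1 it lies on the opposite strand.
Gsta3: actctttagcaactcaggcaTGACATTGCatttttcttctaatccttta
Mgst1: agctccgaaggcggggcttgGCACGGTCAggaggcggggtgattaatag
Gsta3 and Mgst1 were correlated at r = 0.78 within the groups, and Gstm5 with them at 0.19 and 0.25. The 2 genes whose groups were apart, Gstm1 and Gsto1, had no match, which says only that these letters are not in that window.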

How the data were processed

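Total RNA of epididymal WAT of 4 Agt Tg and 4 Wt samples was labelled with biotin and hybridised to Illumina arrays. The authors deposited bead intensity values with a detection p-value per probe and array, before normalization. They also deposited log2 values made with lumi, with no version or settings stated in any source read. These matched quantile-normalized log2 intensities (rank correlation 1 with each array) and served as an alternative.

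The function neqc of limma 3.58.1 (R 4.3.3) was applied to the intensities (normexp with negative controls inferred from detection p, quantile normalization, offset 16). Probes with detection p under 0.05 on at least 4 of 8 arrays were kept, 11624 (45.2%) in all, from 8285 genes. Linear models with group alone, and no block, were fitted by lmFit with a trended eBayes, with Benjamini-Hochberg adjustment across these probes. The brightest kept probe stood for its gene. Probes are numbered by brightness, and differences are Agt Tg minus Wt. Folds of dim probes depend on the background correction and offset.

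Probes were named through the platform annotation. Of 25696 probes 23978 had 1 symbol, 0 several and 1718 none, and 23962 were matched by Entrez ID to RefSeq with 0 symbols changed. The left-out entries were 1 blank row and 1 probe of the log2 table alone. Median intensity ran from 125 to 154 per array, and correlations between arrays within a group from 0.956 to 0.986.

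The members, lists and tests were chosen with earlier results of these data known. Named genes were every probe of the members, all other listed family genes, Agt, up to 8 pathway genes of smallest p, and the genes nearest to Gstm1 (5 highest and 3 lowest r) and Gsta4 (3 highest). The fit was tested on simulated data. Alternatives were the authors' log2 values, quantile normalization alone, median scaling, no filter, an offset of 50, a strict filter (detection p under 0.01 on all 8 arrays), eBayes without trend, array weights, a replicate block, the mean of a gene's probes and leaving out each array. A macrophage covariate was added after seeing the data.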

Additional observations from a re-analysis of the deposited data

Results flagged for a closer look

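Among 88 groups of 4 arrays examined for a single array far from the others, 2 had one, and chance marks about 1 in 20. For the brighter probe of Gsto2, the other omega-class gene, Wt replicate 3 lay at 6.70, apart from the remaining Wt arrays at 5.59 to 5.63. For Gstp2, the paralog of Gstp1, Wt replicate 1 lay at 8.91 and the remaining Wt arrays at 9.64 to 9.76. No probe of the 10 genes had such an array.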

How the results depend on the processing

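The Gstm1 difference ran from -0.65 (median scaling) to -0.49 over the alternatives, and from -0.62 to -0.49 over fits lacking 1 array. It stayed at -0.54 with no filter, the strict filter, eBayes without trend, the replicate block and the mean of a gene's probes. For a gene with 1 kept probe none of these can alter the difference, so they add no support. Over fits lacking 1 array the sign was fixed, since the groups did not overlap in the reported fit, so it adds no support. The authors' log2 values and quantile normalization alone gave nearly the same difference (-0.52 on each) and are not separate alternatives. Of the 10 genes 6 to 9 had a lower mean under the alternatives, their median lay between -0.32 and -0.13 over fits lacking 1 array, and no pair of genes passed after adjustment under the 4 changes of normalization, background or offset or without any single array, the alternatives run for pairs. Averaging the probes of each gene, Gstm2 lay at -0.096 and Gstp1 at -0.087, against 0.061 and 0.13 on the brightest. Over the whole array 0 probes passed at adjusted p under each alternative run on probes, which leaves out the mean over a gene's probes, and 1145 at unadjusted p under 0.05 in the reported fit.

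Median scaling, which moved the median of all probes to -0.13, gave 1193 probes lower and 80 higher at unadjusted p under 0.05, beside 660 and 485, and 699 lower and 53 higher with groups not overlapping, beside 388 and 351. Relative to that median Gstm1 lay at -0.52 and Gsto1 at -0.28. Without a filter the counts were 1205 lower, 921 higher, and 674 and 633 not overlapping, over more probes. When single arrays were left out, 452 to 794 probes were lower and 290 to 543 higher, with 290 without Wt replicate 1, and 496 to 718 lower and 443 to 706 higher did not overlap, with fewer arrays to overlap.

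Of the pathway genes, 1 was lower in the reported fit, 2 with median scaling, the replicate block or the macrophage covariate, 3 with array weights, 0 with the strict detection filter and 0 to 3 when single arrays were left out. Dropping Agt Tg replicate 2 or Wt replicate 3 gave 3, and dropping Wt replicate 1, 2 or 4 gave 0. The number higher was 1 with array weights, 1 with the covariate and 0 to 1 when single arrays were left out. Counts over all probes moved as well. There 660 were lower in the reported fit, 1193 with median scaling, 783 with the replicate block, 824 with the covariate and 895 with array weights. With the strict filter 495 were lower, over fewer probes. Higher were 485 in the reported fit, 623 with array weights and 673 with the covariate. Of the other family genes 1 was lower with the strict filter, 1 was higher without a filter, and 1 to 2 were lower when single arrays were left out, the count of 1 coming from dropping replicate 1 or 3 of Agt Tg or replicate 4 of Wt. The cause was not tested.

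Replicate numbers are shared by the groups. Deviations of same-numbered arrays correlated at 0.33, 0.39, -0.037 and -0.082, and those of differently numbered arrays at -0.32 to 0.24. These values do not settle whether the numbers pair the samples. With the replicate block 783 probes were lower and 585 higher, and 3 other family genes were lower. The Gstm1 difference was -0.54 as in the reported fit, since a block with 1 array of each group cannot change it. With 4 arrays a group, small differences of single probes cannot be resolved, and dim probes near background carry the least signal.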
